A study of Mus musculus with 4 samples.

Results

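The nuclear genes for the subunits of mitochondrial respiratory complexes I, III, IV and V were followed through the immune cells of control skin and skin tumors. Members were taken by name alone, as every symbol of the deposited gene list that starts with Ndufa, Ndufb, Ndufc, Ndufs, Ndufv, Uqcr, Cox4, Cox5, Cox6, Cox7, Cox8 or Atp5 and does not contain -ps. This gave 89 of 31053 genes, of which 38 were named as complex I subunits, 8 as complex I assembly factors (Ndufaf1 to Ndufaf8), 8 as complex III subunits, 18 as complex IV subunits and 17 as complex V subunits. The symbol Atp5o occurred for 2 gene identifiers, which were kept apart. Together the members held 1.06% of all UMIs (unique molecular identifiers, each marking 1 captured RNA molecule).

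Live CD45+ cells came from 2 control skins, taken from mice without inoculation, and from 2 skin tumors, all mice having the genotype C57/BL6, and 1 droplet library of RNA 3' ends was sequenced from each. The tumors grew on the flank after injection of 2323 cells, 1 cell line made from a K14rtTA/tetOCre mouse model, in which the keratin 14 promoter drives the system that switches Cre on. The recipients were of both sexes and between 8 and 10 weeks old when injected, while the sex behind each library and the age of the control mice are not given in the sources used here. The tumors are therefore grafts of 1 cell line into C57/BL6 mice, and both tumor libraries share that line.

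Oxidative phosphorylation makes ATP in the inner mitochondrial membrane. Complex I takes electrons from NADH, complex III passes them from ubiquinol to cytochrome c, complex IV hands them to oxygen, and complex V (ATP synthase) uses the proton gradient that this builds. The complexes are mosaics: a small set of their subunits is encoded in mitochondrial DNA and all others, among them the members described here, in the nucleus. Activated lymphocytes and regulatory T cells (Tregs) are known to rely on mitochondrial respiration to different degrees, and neutrophils are known for having few active mitochondria.

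Promoters of the members were searched for the letters of 3 transcription factor motifs known from genes of the respiratory chain. These were NRF1 (GCGCATGC or, on the other strand, GCATGCGC), the ETS family (CCGGAAG or CTTCCGG) and YY1 (AAGATGGCG or CGCCATCTT), where a YY1 match directly after an ETS match may share the letters AAG with it. Of 89 members, 72 had a RefSeq promoter of assembly GRCm38.p6, reaching from 250 bases before to 50 bases after a transcription start. At least 1 match was held by 29 of these members (40.3%) and by 3668 of all 27025 genes with such a promoter (13.6%). The NRF1 letters were found for 15.3% of members and 3.05% of all genes, the ETS letters for 22.2% and 9.93%, and the YY1 letters for 11.1% and 1.64%. Of the 15 symbols that passed the test in any cell class below, 14 had a promoter and 6 held a match. That share is near the 29 of 72 found for all members, so a match does not set these symbols apart. The 15 symbols come from different classes and include Atp5o, which was lower. The 6 are shown for their letters alone. Each stretch runs 5′ to 3′ on the strand of the gene with the matched letters in capitals, and distances count from the transcription start, the first transcribed base being 1.
Ndufb7, 100 bases before the start, chr8:83566658-83566757, + strand, ETS match 20 bases upstream: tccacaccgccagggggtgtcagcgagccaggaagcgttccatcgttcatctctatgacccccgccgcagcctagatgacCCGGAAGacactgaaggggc
Atp5j, 100 bases before the second listed start, chr16:84834977-84835076, - strand, YY1 match 88 and ETS match 61 bases upstream: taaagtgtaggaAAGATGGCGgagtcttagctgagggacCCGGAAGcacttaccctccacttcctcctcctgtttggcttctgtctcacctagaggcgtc
Ndufc1, chr3:51408915-51408944, - strand, YY1 match at base 23 of the transcript: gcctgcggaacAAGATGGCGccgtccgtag
Ndufs7, chr10:80249462-80249491, + strand, YY1 match at base 25: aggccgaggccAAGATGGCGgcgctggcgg
Ndufs6, chr13:73328433-73328462, - strand, YY1 match at base 34: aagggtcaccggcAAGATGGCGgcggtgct
Ndufs8, chr19:3912742-3912771, - strand, ETS match at base 16: cttaggctccgcCTTCCGGttgaaccgcat
Upstream refers to the RefSeq start. In the GENCODE M21 annotation Ndufb7 and Atp5j start further upstream, so their matches lie inside those gene models. A match says that the letters are present, and binding was not measured.

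The 4 libraries held 2258 to 5176 cells and 34893543 to 73904272 UMIs. After the cell filters, 12612 cells were kept as immune cells and 6736 of them fell into exactly 1 of 15 gates built from marker genes. CD8 and CD4 T cells were gated on Cd3 genes, T cell receptor αβ genes and Cd8a/Cd8b1 or Cd4 without Foxp3, Tregs on Cd3 genes and Foxp3, NK cells on Ncr1, Klrb1c and Eomes without Cd3 genes, C1q macrophages on the C1q genes with Adgre1, Csf1r or Fcgr1, cDC1 on Xcr1 or Clec9a and cDC2 on Cd209a, the dendritic cells also on H2-Ab1. The gates of CD8 and CD4 T cells, Tregs, NK cells and cDC2 also set an upper limit on the C1q UMIs of a cell. Over all gated cells Ptprc, the gene for CD45, had a UMI in 97.8 to 98.9% of cells per library. Between 1 and 7 cell barcodes were shared by any 2 libraries. Classes with at least 20 cells in each library were tested, which left 7. Cells of 1 library are not replicates, so UMIs were summed per class and library, and with 2 libraries against 2 the smallest two-sided p of an exact permutation test is 0.33. Tests across genes therefore rest on the edgeR fit. Its p-values set a change against the spread between these libraries, which the fit estimates with information shared across genes.

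The summed level of the members differed between cell classes. In control skin, neutrophils were lowest, with 43.8 member UMIs per 10000 UMIs in the 1 control library with enough of them. Resident skin lymphocytes came next: dendritic epidermal T cells (DETC) with 80.1 and 79.7, type 2 innate lymphoid cells (ILC2) with 84.6 and 79.1, and dermal γδ T cells with 82.5 and 83.6. The range of ILC2 overlapped those of DETC and of dermal γδ T cells, which did not overlap each other. Tregs had 85.0 and 89.5, hardly above ILC2, and Langerhans cells had 91.3 and 90.8. CD4 T cells (97.3 and 102) overlapped in range with C1q macrophages (113 and 98.7), and macrophages with CD8 T cells (105 and 110), NK cells (118 and 107) and type 2 conventional dendritic cells (cDC2, 112 and 114). Type 1 conventional dendritic cells (cDC1) stood above all of these with 150 and 127, and mast cells reached 145 in the single control library with enough cells. Single ILC2 spread widely around such a sum, with a median per cell of 48.1 and 68.2 per 10000 in the control libraries and a lower quartile of 17.3 and 19.3.

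**Figure D1:**
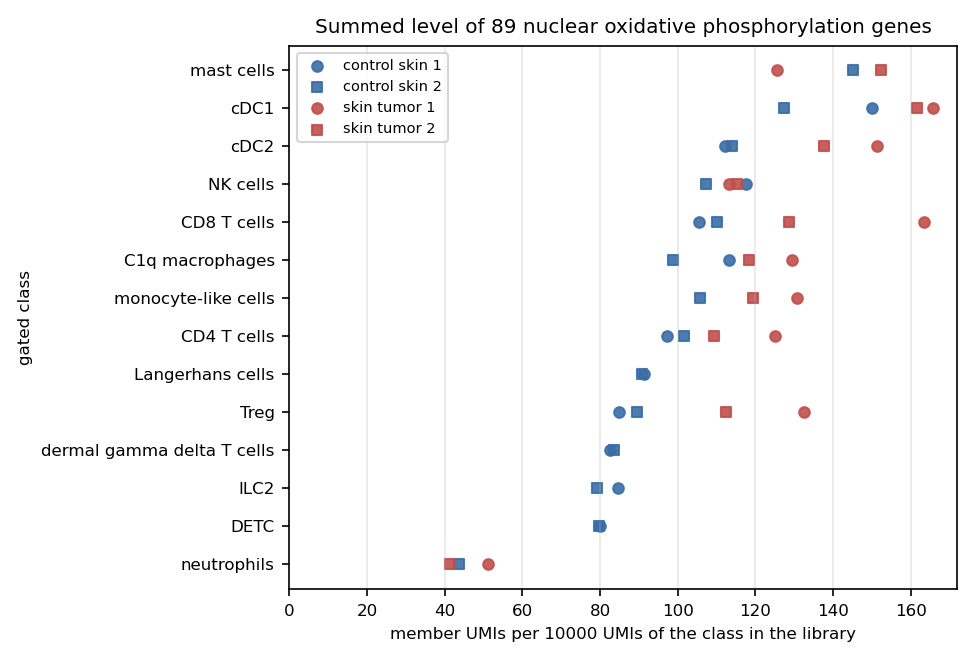
Summed member UMIs per 10000 UMIs of a class (x axis) for each gated class (y axis) and library with at least 20 cells of the class, blue for control skin and red for skin tumor, circles and squares for replicates 1 and 2. Neutrophils lie lowest at 41.3 to 51.2, and in Tregs the tumor libraries (132 and 112) lie above the control libraries (85.0 and 89.5).

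In skin tumor the summed level was higher in both tumor libraries than in both control libraries in 6 of the 7 tested classes. Tregs went from 85.0 and 89.5 to 132 and 112 per 10000, a log2 ratio of the means of 0.49. CD8 T cells went from 105 and 110 to 163 and 129 (0.44), where tumor replicate 1 stood far above tumor replicate 2 and the ratio without it was 0.26. The cDC2 went from 112 and 114 to 151 and 138 (0.35). The cDC1 went from 150 and 127 to 166 and 162 (0.24), CD4 T cells from 97.3 and 102 to 125 and 109 (0.24), and C1q macrophages from 113 and 98.7 to 129 and 118 (0.23). Without control replicate 2 the ratio was 0.13 in cDC1 and 0.13 in C1q macrophages, without control replicate 1 it was 0.36 in cDC1, and without tumor replicate 1 it was 0.14 in CD4 T cells. NK cells were the exception, with 118 and 107 in control skin and 113 and 115 in tumor, and their groups overlapped. These sums were taken without a test. Summed the same way, ribosomal protein genes had log2 ratios of 0.33 in cDC2, 0.30 in Tregs and 0.28 in CD8 T cells. The ratios were 0.07 in CD4 T cells, 0.06 in C1q macrophages, 0.02 in NK cells and -0.23 in cDC1. Only in cDC2 and CD8 T cells did the groups of these genes not overlap.

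By complex, the summed level in Tregs went from 21.5 and 23.3 to 37.6 and 30.2 per 10000 for complex I, from 10.3 and 10.9 to 15.5 and 11.4 for complex III, and from 26.3 and 28.4 to 41.3 and 35.7 for complex V, and complex IV had a log2 ratio of the means of 0.44. Each tumor library lay above each control library for every complex, and the gap was narrowest for complex III. In CD8 T cells complex I went from 25.7 and 28.5 to 45.6 and 35.3, a log2 ratio of 0.58, and complex III from 11.9 and 12.8 to 15.5 and 13.8, a ratio of 0.24. In NK cells the groups overlapped for complexes I, III and IV, and for complex V both tumor libraries (35.7 and 36.8) lay just above the control libraries (35.4 and 32.8). Per-cell medians showed the same order, with 77.2 and 79.1 member UMIs per 10000 in control Tregs and 103 and 95.9 in tumor Tregs, and 93.9 and 95.3 against 138 and 110 in CD8 T cells.

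How much of such a rise belongs to the members depends on the scaling. With total UMIs as the only scaling, the median fitted log2 change of all genes tested was itself 0.24 in C1q macrophages, 0.28 in cDC1, 0.26 in cDC2, 0.20 in CD8 T cells, 0.11 in CD4 T cells, 0.08 in Tregs and 0.01 in NK cells. TMM scaling brought these medians to 0.04 or less. On that scale the median member change was 0.52 in Tregs, 0.34 in CD8 T cells, 0.28 in CD4 T cells, 0.19 in cDC2, 0.16 in cDC1, 0.10 in C1q macrophages and 0.05 in NK cells. Single libraries weighed on these medians. Without tumor replicate 1 they were 0.18 in CD8 T cells, 0.15 in CD4 T cells, 0.05 in C1q macrophages and 0.00 in NK cells, without control replicate 2 they were 0.02 in cDC1, 0.03 in C1q macrophages and -0.02 in NK cells, without control replicate 1 they were 0.29 in cDC1, 0.19 in C1q macrophages, 0.12 in cDC2 and 0.11 in NK cells, and without tumor replicate 2 the median in CD8 T cells was 0.55. All log2 fold changes that follow are fitted on the TMM scale, while levels per 10000 are relative to total UMIs. The classes come from the same 4 libraries, so a shared direction across classes is not a repeated observation.

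**Figure D2:**
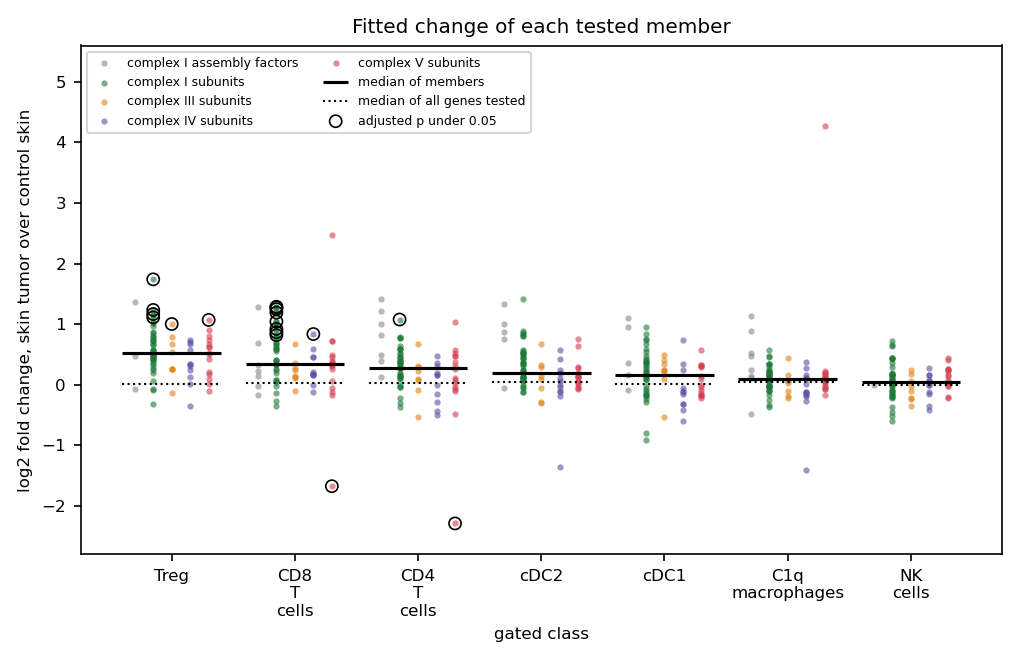
Fitted log2 fold change of skin tumor over control skin (y axis) for every tested member in the 7 classes (x axis), coloured by complex, with black rings for adjusted p under 0.05 (edgeR). Solid bars give the median of the members, from 0.52 in Tregs to 0.05 in NK cells, and dotted bars that of all genes tested, which lies between 0.00 and 0.04.

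CD8 T cells held the most members past the test. Of 89 members, 80 passed the filter on low counts, 9 were higher in skin tumor and 1 was lower, at an adjusted p under 0.05 (edgeR quasi-likelihood test, Benjamini-Hochberg over all genes of the class). That is 11.2% of tested members higher, read against 4.01% of all 8499 genes, and 6.27% of all genes were lower. Complex I accounted for 8 of the 9, out of 37 subunits tested, and their median log2 fold change was 0.59. Complex IV gave 1 of 11 and a median of 0.18, complex III 0 of 8 (1 at an unadjusted p under 0.05, 0 with DESeq2) and a median of 0.19, and complex V 0 of 17 higher (4 in either direction at an unadjusted p under 0.05, 0 with DESeq2) and a median of 0.34. Of the 7 assembly factors tested, 0 passed (1 at an unadjusted p under 0.05, 0 with DESeq2). Over all 8499 genes, 2268 had an unadjusted p under 0.05. Both tumor libraries lay above both control libraries for 56 of the tested members (70.0%), beside 37.6% of all genes tested in the class. For the members named first in each class that separation was a condition of being named, so it is given as a description.

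Ndufc1, an accessory subunit of the membrane arm of complex I, had 0.360 and 0.418 UMIs per 10000 in the CD8 T cells of control skin and 1.18 and 0.840 in tumor. Its log2 fold change was 1.28 ± 0.27 (SE, adjusted p = 0.0175 with edgeR). Ndufc2, its neighbour in the same arm, had 0.354 and 0.553 in control skin and 1.10 and 1.25 in tumor, a log2 fold change of 1.25 ± 0.27 (adjusted p = 0.0186 with edgeR). Tumor replicate 1 was highest for Ndufc1 and tumor replicate 2 for Ndufc2, and the control libraries were lower for both.

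Ndufs5, another accessory subunit, went from 0.366 and 0.374 to 0.918 and 0.754 per 10000, a log2 fold change of 1.04 ± 0.25 (adjusted p = 0.0314 with edgeR). Ndufa5, an accessory subunit of the matrix arm, went from 0.308 and 0.314 to 0.916 and 0.603, a log2 fold change of 1.19 ± 0.29 (adjusted p = 0.0321 with edgeR). Ndufb7, from the far end of the membrane arm, went from 0.882 and 1.08 to 1.97 and 1.83, a log2 fold change of 0.82 ± 0.20 (adjusted p = 0.0329 with edgeR). The control libraries lay within 0.01 per 10000 of each other for Ndufs5 and Ndufa5.

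Ndufs6, which was also higher in Tregs, had 0.447 and 0.553 UMIs per 10000 in CD8 T cells of control skin and 1.11 and 0.948 in tumor, a log2 fold change of 0.92 ± 0.24 (adjusted p = 0.0423 with edgeR). The other 3 members higher in CD8 T cells are named after their values were seen. They were Ndufs7, a core subunit that carries the last iron-sulfur cluster before ubiquinone, the accessory subunit Ndufb8 and the complex IV subunit Cox5b, with log2 fold changes of 1.29, 0.87 and 0.84. Cox5b was the most abundant of the called members, with 1.84 and 1.57 per 10000 in control skin and 3.72 and 3.10 in tumor. The groups did not overlap for any of these 4 genes.

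**Figure D3:**
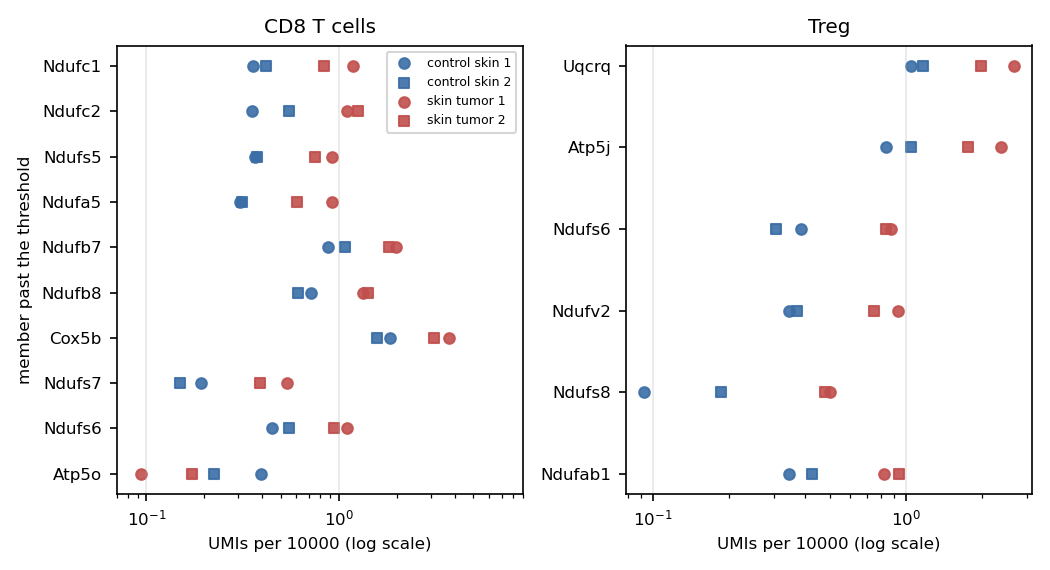
UMIs per 10000 (log axis) of each member past the threshold in CD8 T cells (left) and Tregs (right), 1 point per library. Tumor points (red) lie to the right of control points (blue) in each row but that of Atp5o in CD8 T cells, where they lie to the left.

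Cycling moved with these values. Cells with at least 2 UMIs of Mki67 and Top2a together made up 27.6 and 23.1% of CD8 T cells in control skin and 53.4 and 33.3% in tumor, and the summed level of 6 cycling genes was 6.51 and 6.19 against 13.6 and 8.86 per 10000, with 1 of the 6 past the test. Without cycling cells the median member change was 0.35 beside 0.34 with them, the log2 ratio of the summed level was 0.28 in place of 0.44, and 2 members were higher in place of 9. That setting left fewer cells, 105 and 40 in control skin and 123 and 24 in tumor, which also lowers the number of calls that can be made. The count was 1 with DESeq2, 15 with stricter gates, 18 without TMM and 15 without the filter. Leaving out 1 library also moved the count, but such a fit leaves 1 library in a group. Its median member change is given instead. This was 0.32 without control replicate 1, 0.36 without control replicate 2, 0.18 without tumor replicate 1 and 0.55 without tumor replicate 2. DESeq2 called 176 of all 8499 genes higher, beside 1 of 80 members. Calls over all genes in either direction numbered 1174 with stricter gates, 1029 without TMM and 1411 without the filter. They numbered 563 without cycling cells and 874 in the fit of the text. Tumor replicate 2 supplied 36 CD8 T cells and the other libraries 52 to 264. Heat shock and immediate early genes, known to respond to tissue digestion, summed to 31.3 and 26.4 per 10000 in control skin and 45.5 and 40.0 in tumor, with 3 of 7 past the test upwards and 1 downwards. Macrophage RNA (C1qa, C1qb, C1qc, Lyz2 and Apoe) summed to 3.75 and 5.16 against 1.85 and 7.22, with 0 of 5 past the test (3 at an unadjusted p under 0.05, 0 with DESeq2). C1qa stood at 0 in control replicate 2 and at no more than 0.237 elsewhere, but the gate itself limits the C1q genes. Their low level therefore does not measure macrophage RNA in these cells. The part of the last 2 lists in the result was not tested.

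Of the 7 classes, Tregs had the largest median change of the members while cycling cells were kept. Without cycling cells the median was 0.32 in Tregs, below 0.42 in CD4 T cells and 0.35 in CD8 T cells. Of 89 members 74 passed the filter, and 6 were higher in skin tumor (8.11%), against 3.2% of all 7624 genes tested. None was lower with edgeR, where 4.92% of all genes were lower, or with DESeq2, which called 276 of all 7624 genes lower. None of the 7 members with a fitted change below 0 had an unadjusted p under 0.05 (edgeR). Both tumor libraries lay above both control libraries for 54 of the tested members (73.0%), beside 32.1% of all genes tested. The median log2 fold change was 0.57 over 37 complex I subunits, 0.40 over 8 of complex III, 0.34 over 11 of complex IV and 0.53 over 15 of complex V. Past the test were 4 of complex I, 1 of complex III and 1 of complex V. None of complex IV passed, where 4 had an unadjusted p under 0.05 and 0 passed with DESeq2. Over all 7624 genes, 1948 had an unadjusted p under 0.05.

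Uqcrq, a small subunit of complex III, had 1.05 and 1.17 UMIs per 10000 in Tregs of control skin and 2.66 and 1.98 in tumor. Its log2 fold change was 1.00 ± 0.22 (adjusted p = 0.035 with edgeR). Atp5j, coupling factor 6 in the side stalk of ATP synthase, went from 0.835 and 1.05 to 2.37 and 1.75, a log2 fold change of 1.07 ± 0.24 (adjusted p = 0.0353 with edgeR). For both genes tumor replicate 1 was highest.

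The complex I subunits higher in Tregs included 2 that hold iron-sulfur clusters in the matrix arm. Ndufv2 went from 0.344 and 0.373 to 0.930 and 0.750 per 10000, a log2 fold change of 1.17 ± 0.28 (adjusted p = 0.0429 with edgeR). Ndufs8 went from 0.0927 and 0.186 to 0.503 and 0.477, a log2 fold change of 1.74 ± 0.41 (adjusted p = 0.0439 with edgeR), and its control levels rest on 7 and 14 UMIs. Ndufs6, an accessory subunit, went from 0.384 and 0.306 to 0.870 and 0.835, a log2 fold change of 1.23 ± 0.28 (adjusted p = 0.0372 with edgeR). Both tumor libraries were higher for each of these, as the naming required.

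Ndufab1, the mitochondrial acyl carrier protein that is also built into complex I, was the sixth, with an adjusted p of 0.0499 (edgeR) that lay just under the threshold, and 3 of 12 alternative settings called it. Its values in Tregs were 0.344 and 0.426 in control skin and 0.819 and 0.937 in tumor, a log2 fold change of 1.11 ± 0.28. The whole count is as sensitive: 0 members were higher with DESeq2 and with stricter gates, 2 without the deepest cells, and 20 without the filter on low counts. Leaving out 1 library moved the count too, in fits that leave 1 library in a group. The median member change stayed between 0.32 and 0.59 in all of these settings and without TMM. DESeq2 called 140 of all 7624 genes higher, beside 0 of 74 members. Calls over all genes in either direction numbered 317 with stricter gates, 386 without the deepest cells and 1443 without the filter. They numbered 619 in the fit of the text.

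Cycling also moved with the Treg values. Cycling cells were 25.9 and 14.8% of Tregs in control skin and 31.1 and 25.5% in tumor, the summed level of 6 cycling genes was 2.28 and 3.58 against 7.94 and 7.55 per 10000, and 3 of the 6 passed the test upwards. Without cycling cells the log2 ratio of the summed level was 0.33 in place of 0.49, and 1 member was higher. That setting left 40 and 46 Tregs in control skin and 82 and 41 in tumor. It called 290 of all 6137 genes tested in either direction. Macrophage RNA in the Treg gate summed to 5.79 and 9.97 against 2.45 and 3.36 per 10000, with 1 of 4 genes tested past the test (Lyz2, lower). Of these 4 genes, 3 had a fitted change above 0, so the lower sum does not stand for the whole list. C1qa stood at 0.205 or less in every library, a level that the limit on C1q genes in the gate keeps low. Heat shock and immediate early genes summed to 23.3 and 27.2 against 32.0 and 61.8, with 3 of 7 past the test upwards. The part of the last 2 lists in the result was not tested.

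**Figure D4:**
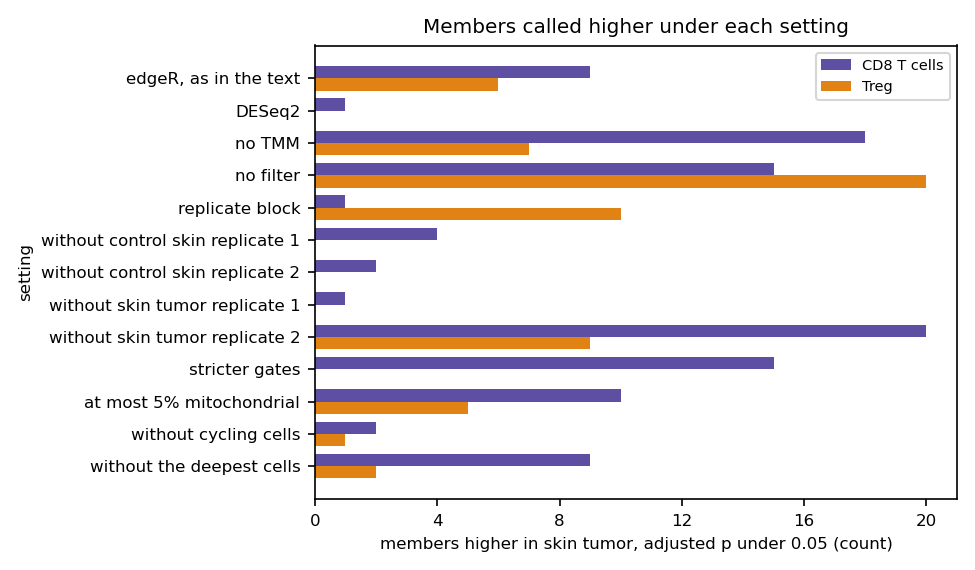
Number of members called higher in skin tumor at an adjusted p under 0.05 (x axis) under each setting (y axis), for CD8 T cells and Tregs. The bars run from 1 to 20 in CD8 T cells and from 0 to 20 in Tregs, against 9 and 6 in the text.

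In CD4 T cells 79 members were tested, 1 was higher (4.17% of all 8078 genes were) and 1 was lower (4.09% of all genes), shares of 1.27% each that do not exceed the background. The higher member was Ndufab1, with 0.349 and 0.341 UMIs per 10000 in control skin and 0.692 and 0.854 in tumor, a log2 fold change of 1.08 ± 0.28 (adjusted p = 0.0497 with edgeR). The tumor libraries lay above the control libraries. Among the alternatives, 6 of 12 settings called the gene. DESeq2, stricter gates, the removal of cycling cells and the settings without control replicate 1, control replicate 2 or tumor replicate 2 did not. The 7 assembly factors tested had a median log2 fold change of 0.81, with every value above 0, yet 0 passed with edgeR or DESeq2. An unadjusted p under 0.05 was reached by 2 of them and by 1993 of all 8078 genes. Heat shock and immediate early genes moved in this class too, at 27.0 and 22.0 against 70.5 and 62.9 per 10000 with 3 of 7 past the test upwards, and their part in the result was not tested. Cycling genes summed to 6.29 and 7.91 against 5.71 and 4.33, with 1 of 6 past the test downwards. Macrophage RNA, its C1q part limited by the gate, overlapped between groups, at 1.23 and 8.15 against 2.29 and 4.96.

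The lower member in both CD4 and CD8 T cells was one of the 2 entries for Atp5o, the ATP synthase stalk subunit known as OSCP. This entry (ENSMUSG00000116933, GRCm38 chr16:91684398-91926982, - strand) runs past the usual gene (ENSMUSG00000022956, chr16:91925214-91931687, - strand). It shares 1769 bases with the 3' end of that gene, and how reads in the shared bases were counted was not examined. Its level therefore cannot be read as the level of OSCP. In CD4 T cells it had 0.267 and 0.374 UMIs per 10000 in control skin and 0.0778 and 0.0540 in tumor, a log2 fold change of -2.29 ± 0.44 (adjusted p = 0.0176 with edgeR). Both tumor levels there lay below what the filter on low counts asks for. The entry passed that filter through the control libraries alone, where it was high, so this call is a description only. In CD8 T cells it had 0.395 and 0.224 against 0.0938 and 0.172, a log2 fold change of -1.68 ± 0.46 (adjusted p = 0.0479 with edgeR). The usual Atp5o entry was more abundant, with 0.923 and 1.06 against 1.22 and 0.973 in CD4 T cells and 1.11 and 1.18 against 1.84 and 1.66 in CD8 T cells. Its log2 fold change was 0.08 ± 0.22 in CD4 T cells and 0.46 ± 0.20 in CD8 T cells, with adjusted p of 0.866 and 0.168 (edgeR). The call of the first entry was lost without control replicate 1 in both classes, without control replicate 2 in CD4 T cells and without tumor replicate 1 in CD8 T cells, and DESeq2 made it in neither.

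The dendritic cells had higher summed levels in tumor but 0 members past the test in either direction with edgeR. In cDC2, 77 members were tested, 12 had an unadjusted p under 0.05 and DESeq2 called 0, while 4.04% of all 7056 genes were higher and 4.51% lower. In cDC1, 75 were tested, 9 had an unadjusted p under 0.05 and DESeq2 called 0 higher and 1 lower. Of all 6584 genes, 4.19% were higher and 3.43% lower with edgeR. Over all genes, 1890 of 7056 had an unadjusted p under 0.05 in cDC2 and 1546 of 6584 in cDC1. The members did not exceed that share in either class. The member that DESeq2 called, Ndufa6, is named after its values were seen. This LYR-motif accessory subunit of complex I had 3.56 and 3.89 UMIs per 10000 in cDC1 of control skin and 2.47 and 2.23 in tumor. Its log2 fold change of -0.91 ± 0.24 had an adjusted p of 0.0527 with edgeR, against the direction of the summed level. The cDC1 of tumor also held more macrophage RNA, at 75.9 and 61.7 against 13.6 and 17.2 per 10000 in control skin, with 3 of 5 genes past the test, and its part in the levels was not tested. Heat shock and immediate early genes were higher in both dendritic classes of tumor, at 30.2 and 31.5 against 55.0 and 78.3 per 10000 in cDC1 (2 of 7 past the test) and 29.5 and 23.9 against 69.3 and 117 in cDC2 (4 of 7), and their part was not tested either. The sum of macrophage RNA in cDC2, its C1q part limited by the gate, ran the other way, at 45.2 and 49.6 against 10.2 and 16.03. Of the 2 genes tested, 1 was past the test downwards and 1 had a fitted log2 fold change of 1.565. Both had an unadjusted p under 0.05 (edgeR), so the sum does not stand for the whole list. Cycling genes summed to 1.10 and 1.28 against 3.33 and 1.55 in cDC2 and to 2.33 and 5.24 against 6.13 and 7.47 in cDC1, with 0 past the test with edgeR or DESeq2 and 2 and 1 at an unadjusted p under 0.05. Without cycling cells the log2 ratio of the summed level was 0.32 in cDC2 and 0.27 in cDC1.

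C1q macrophages, the class with most cells in tumor, gave 0 members of 83 tested in either direction with edgeR, with 3 at an unadjusted p under 0.05. DESeq2 called 1 higher and 0 lower. Few genes passed at all in this class, 0.145% of 11058 higher and 0.118% lower. An unadjusted p under 0.05 was reached by 1326 of the 11058. The median log2 fold change was 0.10 for complex I, 0.04 for complex III, -0.13 for complex IV and 0.07 for complex V, beside 0.04 for all genes. Control replicate 1 supplied 43 macrophages and tumor replicate 1 supplied 1143. Heat shock and immediate early genes summed to 52.0 and 55.6 against 73.8 and 67.2 per 10000. With edgeR 0 of these 7 genes passed, 4 had an unadjusted p under 0.05, and DESeq2 called 1 higher. Cycling cells were 4.65 and 9.02% of macrophages in control skin and 19.8 and 11.9% in tumor. The part of both in the levels was not tested.

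The member that DESeq2 called in macrophages was Atp5s, coupling factor B, a protein associated with ATP synthase rather than one of its structural subunits. It is named after its values were seen. It had 0 and 2 UMIs in control skin and 427 and 80 in tumor, which is 0 and 0.0094 against 0.194 and 0.104 per 10000, with a log2 fold change of 4.27 ± 0.76 and an adjusted p of 0.106 (edgeR). Much of this sits in single cells: in tumor replicate 1 the UMIs fell in 90 of 1143 cells and 1 cell held 191 of the 427, and in tumor replicate 2 they fell in 27 of 385 cells and 1 cell held 38 of the 80. In control skin 0 of 43 and 2 of 133 macrophages had a UMI, with no more than 1 each. In CD8 T cells, where the log2 fold change was 2.47 ± 0.70 (adjusted p = 0.0557 with edgeR), a single cell of tumor replicate 1 held 19 of its 47 UMIs. The CD8 T cells of control skin had 3 and 1. In both classes the control levels of Atp5s lay below what the filter on low counts asks for. The gene was tested there through the tumor libraries alone, where it was high, so these changes are a description only. Langerhans cells of control skin had 66 and 75 UMIs of Atp5s, with at most 8 per cell.

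In NK cells no member came near the threshold. Of 72 tested, 0 passed with edgeR or DESeq2 and 0 had an unadjusted p under 0.05, in a class where 2.14% of 5478 genes were higher and 1.66% lower. Among all 5478 genes, 847 had an unadjusted p under 0.05. Fitted log2 fold changes of the members ran from -0.60 to 0.72. Control skin gave 25 and 20 NK cells, so the depth is limited.

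The difference of the tumor effect between C1q macrophages and CD8 T cells was tested for 81 members, with the library as a block. The median difference, macrophages minus CD8 T cells, was -0.32 log2, with 61 members below 0 and 20 above, while the median over all genes tested was 0.00. It was -0.10 without tumor replicate 1 and -0.46 without tumor replicate 2. None of the members passed in either direction with edgeR (1.2% of 10541 genes were higher and 0.55% lower). An unadjusted p under 0.05 was reached by 13 of the 81 members and by 1355 of all 10541 genes. The smallest p belonged to Ndufc2, with a difference of -1.17 ± 0.34 and an adjusted p of 0.131 (edgeR). 

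The same complexes hold the products of 13 mitochondrial genes. In Tregs their summed level was 211 and 200 per 10000 in control skin and 153 and 121 in tumor, a log2 ratio of -0.58, with the tumor libraries below the control libraries. Of the 13, 12 had a fitted change below 0 and the median was -0.68, but 0 passed with edgeR or DESeq2 and 7 had an unadjusted p under 0.05. The ratio of nuclear member UMIs to mitochondrially encoded UMIs in Tregs was 0.403 and 0.448 in control skin and 0.864 and 0.927 in tumor, a log2 ratio of 1.07. In settings chosen after the data were seen, leaving out a library, tighter gates, a limit of 5% on mitochondrial UMIs, removal of cycling cells and removal of the deepest cells kept it between 1.00 and 1.15.

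Other classes showed smaller shifts of this ratio. It was 0.653 and 0.757 against 0.954 and 1.09 in cDC2, 0.700 and 0.710 against 0.816 and 1.00 in cDC1, 0.534 and 0.526 against 0.731 and 0.620 in CD4 T cells, and 0.480 and 0.510 against 0.543 and 0.726 in NK cells, with the tumor libraries higher throughout. In CD8 T cells (0.547 and 0.663 against 0.790 and 0.580) and C1q macrophages (0.593 and 0.667 against 0.622 and 0.680) the groups overlapped. In CD8 T cells the mitochondrially encoded sum was itself higher in tumor, at 193 and 166 against 207 and 222 per 10000. The ratio carries no test.

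**Figure D5:**
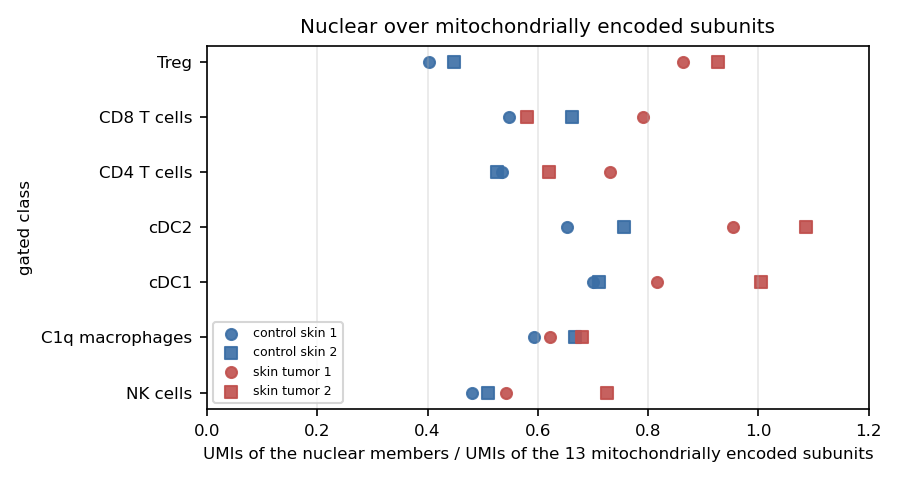
Ratio of the UMIs of the nuclear members to the UMIs of 13 mitochondrially encoded subunits (x axis) in the 7 tested classes (y axis), 1 point per library. The Treg points separate most, at 0.403 and 0.448 in control skin and 0.864 and 0.927 in tumor, and the macrophage points overlap.

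Some complexes have subunit isoforms that differ by tissue or oxygen supply, and in these immune cells the ubiquitous form prevailed. Cox4i1 had 3.91 to 7.51 UMIs per 10000 over the tested classes and libraries, while Cox4i2, the isoform known from lung and from low oxygen, had none in CD8 T cells, NK cells and cDC2 and at most 1 per library in CD4 T cells and Tregs. In C1q macrophages Cox4i2 had 0 and 1 UMI in control skin and 81 and 11 in tumor, in 65 of 1143 and 9 of 385 tumor cells and at no more than 4 per cell. The ratio of tumor to control over both libraries was 9.23, with an exact 95% interval of 1.62 to 368 that covers counting error only. In cDC1 it had 0 UMIs in both control libraries and 10 and 1 in tumor. The gene did not pass the filter on low counts in any class. Langerhans cells of control skin held 21 and 23 UMIs of it. Cox4i1 itself had a log2 fold change of -0.13 ± 0.21 in macrophages (adjusted p = 0.868 with edgeR).

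Ndufa4, counted above with complex I by its name but known as a subunit of complex IV, had a log2 fold change of 0.72 ± 0.22 in Tregs, where it went from 1.11 and 1.01 to 2.06 and 1.59 per 10000 with an adjusted p of 0.0875 (edgeR). Its paralog Ndufa4l2, known as a target of hypoxia-inducible factor, had 1 and 4 UMIs in macrophages of control skin and 20 and 2 in those of tumor. The 20 fell in 5 of 1143 cells and 12 of them in 1 cell. The ratio of tumor to control was 0.441, with an exact 95% interval of 0.163 to 1.49. That interval covers counting error only, not such clustering in cells. Ndufa4l2 had 0 to 2 UMIs in every library of the other tested classes. Cox7a2 went from 1.86 and 1.90 to 3.74 and 2.48 in CD8 T cells, with an adjusted p of 0.151 (edgeR). The muscle isoform Cox7a1 was tested in C1q macrophages alone, with a log2 fold change of -0.13 ± 0.59 (adjusted p = 0.964 with edgeR). Cox7b2 and Cox8c, isoforms known from testis, had 0 UMIs in all 4 libraries, which allows up to 0.0141 per 1000000 UMIs for counting error alone. Cox8b had 5, while the isoform Cox6b2 had 949. Cox6b2 was tested in C1q macrophages and cDC2, with log2 fold changes of -1.41 and -1.36, and passed in neither with edgeR or DESeq2.

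Cox6a1 was present throughout, at 1.15 to 2.77 UMIs per 10000, and passed the test in no class with edgeR. Cox6a2, the heart and muscle isoform, was carried by few cells. In cDC1 of tumor replicate 1 it had 42 UMIs in 7 of 152 cells, 16 of them in 1 cell, and in cDC2 of tumor replicate 2 it had 14 UMIs, 13 of them in 1 cell. In C1q macrophages it had 1 and 2 UMIs in control skin and 48 and 5 in tumor, with 19 of the 48 in 1 cell. Both dendritic classes had 0 UMIs of Cox6a2 in both control libraries, with 26 to 60 cells each.

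Genes of the pathway outside the naming rule gave few calls. Complex II, the only respiratory complex wholly encoded in the nucleus, had 0 of 4 genes past the test with edgeR or DESeq2 in CD8 T cells and in Tregs, with median log2 fold changes of 0.44 and 0.53 and 0 genes at an unadjusted p under 0.05. Among the electron carriers in Tregs, Cycs (cytochrome c) went from 0.782 and 0.998 to 1.92 and 1.88 per 10000, a log2 fold change of 1.02 ± 0.22 (adjusted p = 0.0323 with edgeR), and Etfdh, which feeds electrons from fatty acid oxidation to ubiquinone, fell by 1.51 ± 0.34 (adjusted p = 0.0362 with edgeR). The groups did not overlap for either gene, and DESeq2 called neither.

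Of 27 assembly factors outside the rule, 2 of 23 tested were higher in CD8 T cells and 1 of 18 in CD4 T cells. Of all genes, 4.01% and 4.17% were higher in these classes, and DESeq2 called 1 of the factors higher in each. Sco1, another copper-handling factor, was higher in CD8 T cells. Cox17, a copper chaperone for complex IV, was higher in both, with 0.981 and 1.28 against 3.01 and 2.50 per 10000 in CD8 T cells (log2 fold change 1.15 ± 0.22, adjusted p = 0.0111 with edgeR) and 0.933 and 1.23 against 2.53 and 2.99 in CD4 T cells (1.28 ± 0.22, adjusted p = 0.0109 with edgeR). Ttc19, a factor for complex III, was lower in cDC1, as 1 of 12 factors tested beside 3.43% of all genes, and DESeq2 called 0 lower. Genes of the TCA cycle passed the test in cDC2 alone, where Mdh2 and Fh1 were higher. These were 2 of 14 tested, beside 4.04% of all genes, and DESeq2 called 1 gene of that list. Glycolysis gave 0 of 14 genes in CD8 T cells and in Tregs with edgeR or DESeq2, with 1 and 2 at an unadjusted p under 0.05, and in CD4 T cells Hk2, a hexokinase, was lower, at 1.26 and 1.95 against 0.675 and 0.497 per 10000 (log2 fold change -1.50 ± 0.27, adjusted p = 0.0126 with edgeR). Of 12 regulators, 5 were tested in cDC1 and 1 was higher there, beside 4.19% of all 6584 genes. This was Ppargc1b, at 0 in both control libraries and at 0.228 and 0.175 per 10000 in tumor. It passed the filter on low counts through the tumor libraries alone, where it was high, so its call is a description only. A missed threshold does not show that levels were equal.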

How the data were processed

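Sorted CD45+ cells of 2 control skins and 2 skin tumors were profiled by droplet RNA sequencing of 3' ends. The authors deposited raw UMI counts, 1 matrix of genes and cells a library, aligned to mm10 with Cell Ranger, version 7.1.0 in the submitters' processing notes and 7.0.1 in the file headers. The study's later normalization and Harmony integration are not in these counts. As in the study's methods, cells with fewer than 100 genes, fewer than 1000 UMIs, over 15% mitochondrial UMIs or a log10 gene count below 0.8 times the log10 UMI count were removed. Cells with 5 or more UMIs per 10000 of 5 fibroblast and keratinocyte genes were also dropped here. Classes were gated on UMIs of marker genes, and the 194 cells in several gates were left out in place of a doublet caller. A further 5682 cells fell in no gate.

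Counts summed per class and library were tested with edgeR 4.0.16 (quasi-likelihood, robust, TMM, filterByExpr), and p-values were adjusted by Benjamini-Hochberg over all genes of a class at 0.05. Standard errors were taken as the size of the log2 fold change divided by the root of the F statistic. DESeq2 1.42.0 was an alternative. The test was tried on simulated data, where the share of false calls lay above the nominal rate. The named members are, per class and direction, up to 5 past the threshold with the smallest p and no overlap between groups, then 4 isoform pairs, then members called in most classes. Other names are marked in the text. Replicate numbers were not used as pairs. Members, gates and gene lists were chosen with earlier results of these data known. Coordinates come from GENCODE M21 (GRCm38) and promoters from RefSeq (GRCm38.p6). The full list of alleles of the model behind the tumor line is not reported here.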

Additional observations from a re-analysis of the deposited data

How the results depend on the processing

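Counts of members past the threshold moved by over 1.5 times in 51 of 178 recomputed counts, and the cause was not tested. With DESeq2 the higher members numbered 1 in C1q macrophages, 0 in CD4 T cells, 1 in CD8 T cells and 0 in Tregs, and the lower ones 0 in CD4 T cells, 0 in CD8 T cells and 1 in cDC1. Over all genes, DESeq2 called higher 106 of 11058 in C1q macrophages, 206 of 8078 in CD4 T cells, 176 of 8499 in CD8 T cells and 140 of 7624 in Tregs. It called lower 247 in CD4 T cells, 382 in CD8 T cells and 208 of 6584 in cDC1. Without TMM there were 18 higher and 0 lower in CD8 T cells, 1 higher in cDC1 and 3 in cDC2. Without the filter there were 1 higher in C1q macrophages, 2 in CD4 T cells, 15 in CD8 T cells, 2 in cDC2 and 20 in Tregs, and 1 lower in cDC1. Stricter gates gave 0 higher in CD4 T cells, 15 in CD8 T cells and 0 in Tregs, and the limit of 5% mitochondrial UMIs gave 1 lower in cDC1. Without cycling cells, 0 were higher and 0 lower in CD4 T cells, 2 higher in CD8 T cells and 1 in Tregs, and without the deepest cells 2 were higher in Tregs.

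Leaving out 1 library gave 0 to 1 higher members in C1q macrophages, 0 to 2 in CD4 T cells, 1 to 20 in CD8 T cells, 0 to 5 in cDC2 and 0 to 9 in Tregs, and 0 to 1 lower ones in CD4 T cells, CD8 T cells and cDC2. For macrophages against CD8 T cells it gave 0 to 1 in each direction. The median difference of the members between these classes ran from -0.46 to -0.10.

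With the replicate block, 1 member was higher in C1q macrophages, 1 in CD8 T cells, 1 in cDC2 and 10 in Tregs, and 0 were lower in CD8 T cells. Calls over all genes in either direction moved from 29 to 128 in C1q macrophages and from 874 to 483 in CD8 T cells. They moved from 603 to 895 in cDC2 and from 619 to 992 in Tregs. With 2 pairs and correlations of deviations between -0.02 and 0.17, the shared numbers were not taken as pairs.

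The log2 ratio of the summed level moved by more than 1 pooled SD of the replicates (log2 scale) in 8 of 63 recomputations. Without cycling cells it was 0.41 in CD4 T cells, -0.064 in NK cells and 0.33 in Tregs, and stricter gates gave 0.43 in cDC1. In CD8 T cells it was 0.28 without cycling cells, within that SD. Leaving out 1 library gave 0.13 to 0.33 in C1q macrophages, 0.14 to 0.33 in CD4 T cells, 0.37 to 0.60 in Tregs, 0.26 to 0.60 in CD8 T cells, 0.13 to 0.36 in cDC1, 0.28 to 0.42 in cDC2 and -0.041 to 0.09 in NK cells. Depth limits NK cells, cDC1, cDC2 and CD8 T cells most, where a library held 20 to 36 cells.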
